A study of Ovis aries with 41 samples.

Results

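The Wnt ligands, their Frizzled receptors, the R-spondins and 5 co-receptors were examined as a group in RNA-seq counts of sheep tail skin. Members were the genes whose symbol in the RefSeq annotation is WNT with a number, FZD1 to FZD10, RSPO1 to RSPO4, LRP5, LRP6, ROR1, ROR2 or RYK, which gave 38 of the 31182 genes in the file. They comprise 19 Wnt ligands, 10 Frizzled receptors, 4 R-spondins and 5 co-receptors. Skin was taken post mortem from adult rams of the Improved Jezersko-Solčava breed at the base, in the middle and near the tip of the tail. The 4 A/A rams carry the ancestral allele of the HOXB13 promoter on both chromosomes and the 3 D/D rams the derived allele, the alleles being parted by an insertion, and no other treatment was given. Tails of D/D rams are longer, so a tip sample of a D/D ram comes from farther along the body than one of an A/A ram. Each ram gave all 3 positions, and rams are named by their numbers (835507, 871772, 871784 and 871932 for A/A, and 871787, 871868 and 871869 for D/D).

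Wnt proteins are lipid-modified secreted signals. In the canonical branch a Wnt binds a Frizzled together with LRP5 or LRP6, β-catenin is spared from degradation, and it enters the nucleus with TCF and LEF factors. In other branches Wnts act through Frizzleds with ROR1, ROR2 or RYK and steer cell polarity and movement. R-spondins bind LGR receptors and hold back the ligases that remove Frizzleds from the cell surface, which makes a cell more responsive to Wnts. In skin the pathway is known for its role in the start and the growth cycle of hair follicles, and in the embryo for the outgrowth of the tail bud.

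Libraries held 9177395 to 23431409 counts, and the 2 libraries of a ram and position (1 at the mid-tail of ram 871869) were summed, so that a ram counted once, with 17132063 to 37645752 counts per sum. Levels are in CPM, the counts of a sum scaled to its library size after TMM. Positions were compared within rams with edgeR's quasi-likelihood test, and a gene was called at a Benjamini-Hochberg adjusted p under 0.05 over all genes tested. The 11 skin markers in the file, genes of keratinocytes and fibroblasts, had a summed level of 22900 to 49100 CPM over the positions. None was at 0 in all rams, which alone does not mark a tissue as skin. In ram 835507 the wool follicle genes stood apart from those of the other rams, as described with the members it touches. In whole skin, fewer cells of a type and less RNA per cell cannot be told apart.

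All 38 members have coordinates on ARS-UI_Ramb_v3.0. WNT1 and WNT10B lie next to each other on chromosome 3, 5478 bp apart, and WNT6 and WNT10A lie 7468 bp apart on chromosome 2. WNT9B and WNT3 are neighbours on chromosome 11, with 27874 bp between them, and WNT3A and WNT9A on chromosome 5 are 30910 bp apart with 1 gene between. RSPO4 lies on chromosome 13 from 59779771 to 59816909, WNT3 on chromosome 11 from 45117335 to 45170988, WNT4 on chromosome 2 from 244421919 to 244450787 and WNT2B on chromosome 1 from 89923116 to 89945269. The counts cover whole genes, so no exon or UTR was singled out. No transcript lengths were used, so levels are compared between samples and not between genes.

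From base to tip, 3 members rose and 1 fell in the 7 rams together. RSPO4, an R-spondin, and the ligands WNT3 and WNT4 were higher at the tip, and the ligand WNT2B was lower. These 4 are 11.8% of the 34 members tested, beside 5.09% of all 19029 genes tested that were called in this comparison (2.24% higher and 2.84% lower). By role, 3 of 15 ligands, 0 of 10 Frizzleds, 1 of 4 R-spondins and 0 of 5 co-receptors were called. The members' median log2 fold change was -0.0047, next to -0.0197 for all genes. At an unadjusted p under 0.05 there were 12 members (35.3%) and 18.5% of all genes. Members with the same direction in all 7 rams numbered 8 (23.5%), beside 7.37% of all genes. They were WNT2B, WNT4, WNT7B, WNT8B (47 base and 24 tip counts), WNT10B, FZD1, RSPO4 and ROR2. WNT8B had at most 8 counts in a tip sum, under the filter's minimum count of 10. It reached up to 12 at the base and 24 at the mid-tail, so it entered the test through those positions and its fall is no separate support. The tip values overlapped the base values in each of the 34 members, and 0.578% of all genes had no overlap.

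**Figure D1:**
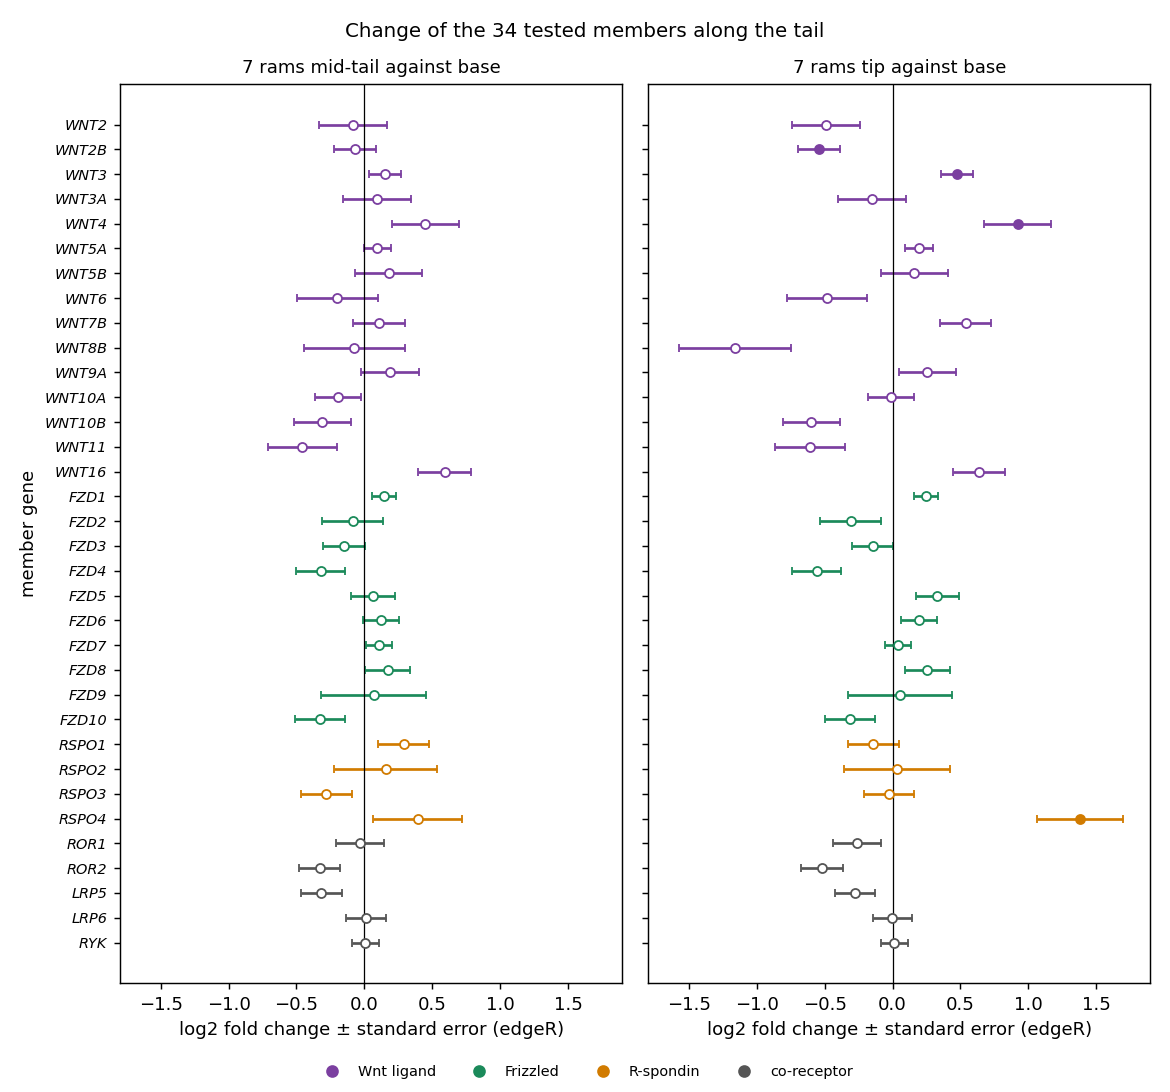
Log2 fold change with its standard error (horizontal axis) of the 34 tested members at the mid-tail (left) and the tip (right) against the base in 7 rams, coloured by role, with filled points for called members. At the tip RSPO4 (1.38), WNT4 (0.92), WNT3 (0.48) and WNT2B (-0.54) are filled, and at the mid-tail no point is.

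RSPO4, which sustains Wnt signalling in the nail and is mutated in inherited absence of nails, had low counts throughout. At the base it was at 0.133, 0.47, 1.15 and 0.603 CPM in the A/A rams, in the order of their numbers, and at 0.738, 1.06 and 1.58 CPM in the D/D rams. At the tip the A/A rams had 1.32, 2.77, 2.17 and 1.33 CPM and the D/D rams 1.92, 1.93 and 2.65 CPM. Each ram was higher at its tip than at its own base, and only the base of ram 871869 reached into the range of the tips. The mean rose from 0.819 ± 0.481 to 2.01 ± 0.574 CPM (SD, n = 7), a log2 fold change of 1.38 (standard error, SE, 0.316, edgeR adjusted p = 0.0158). The tip values rest on 420 counts in 14 libraries and the base values on 166. Leaving out ram 871772 or ram 871787 ended the call, with 5 of 7 such fits calling it and adjusted p-values from edgeR of 0.0187 to 0.0592.

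WNT3, a canonical ligand of the skin epithelium and of the early body axis, was at 18.4, 16.1, 15.2 and 14.6 CPM at the base of the A/A rams and at 22.2, 22.1 and 18.1 CPM in the D/D rams. At the tip the values were 17.1, 26.3, 22.3 and 29.9 CPM in A/A and 33.1, 28.0 and 20.7 CPM in D/D. The gain was seen in 6 of 7 rams, ram 835507 being slightly lower at its tip. It rose by a log2 fold change of 0.48 (SE 0.118, edgeR adjusted p = 0.0257), and without ram 835507 by 0.57. Of the 7 fits with 1 ram left out, those without ram 835507 and ram 871869 called it (adjusted p from edgeR 0.0077 to 0.0913).

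WNT4, a ligand that acts in kidney and gonad formation and is made by skin keratinocytes, was at 6.46, 3.15, 4.09 and 4.22 CPM at the A/A base and at 5.86, 7.08 and 5.79 CPM at the D/D base. The tips were at 8.37, 11, 9.71 and 14.4 CPM in A/A and at 6.98, 13.1 and 7.26 CPM in D/D. All 7 rams were higher at the tip, and the base of ram 871868 overlapped the lowest tip by a small margin. The log2 fold change was 0.92 (SE 0.244, edgeR adjusted p = 0.0352), and it was called in the 2 fits that left out ram 835507 or ram 871784 and in none of the other 5, with adjusted p-values from edgeR of 0.0333 to 0.14.

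WNT2B, a canonical ligand, had base values of 3.14, 4.79, 6.26 and 5.27 CPM in A/A and of 5.99, 5.05 and 7.36 CPM in D/D. At the tip there were 1.81, 2.58, 5.97 and 4.48 CPM in A/A and 3.66, 3.14 and 5.34 CPM in D/D. It was lower at the tip in 7 of 7 rams, and the ranges of the positions overlapped broadly because the rams differed in level. It fell by 0.54 on the log2 scale (SE 0.154, edgeR adjusted p = 0.0496), so it sits at the threshold. Of the fits with 1 ram left out, those without ram 835507 or ram 871784 called it and the other 5 did not, with adjusted p-values from edgeR of 0.0478 to 0.156.

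**Figure D2:**
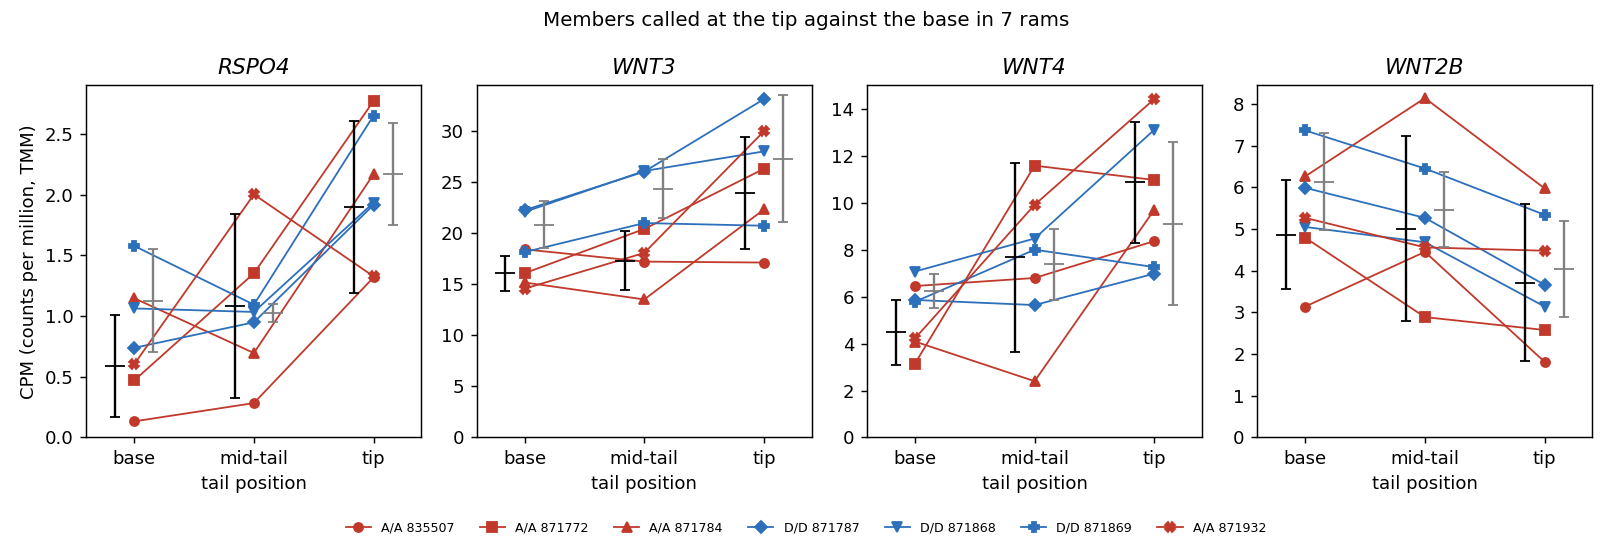
CPM (vertical axis) of RSPO4, WNT3, WNT4 and WNT2B by tail position, each line being a ram (A/A red, D/D blue) and the mean ± SD of the A/A (black, n = 4) and D/D (grey, n = 3) rams. The RSPO4 tips lie between 1.32 and 2.77 CPM, and the WNT2B line ends below its start in each of the 7 rams.

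Several other ligands had log2 fold changes of similar size that did not pass the test. WNT7B, an epidermal ligand, was at 5.21 to 11.5 CPM at the base (median 9.97) and 6.68 to 16.8 at the tip (median 13.0), higher in 7 of 7 rams, with a log2 fold change of 0.54 (SE 0.189, edgeR adjusted p = 0.114). WNT16, which is known from bone and from skin, was at 6.5, 2.86, 2.33 and 0.844 CPM at the A/A base and at 11.9, 2.8, 3.77 and 3.23 CPM at the A/A tip. In D/D it had 7.05, 1.99 and 1.21 CPM at the base and 9.03, 3.2 and 1.31 CPM at the tip. Rams 835507 and 871787 were far above the others at every position, so the spread among rams exceeded the change with position. Its log2 fold change was 0.64 (SE 0.195, edgeR adjusted p = 0.0681, higher in 6 of 7 rams).

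WNT10B and WNT11 pointed the other way. WNT10B, a ligand of the follicle placode that also holds back fat cell formation, was at 3.1 to 9.85 CPM at the base (median 6.2) and at 0.956 to 6.94 CPM at the tip (median 4.68), lower in 7 of 7 rams, by a log2 fold change of -0.60 (SE 0.209, edgeR adjusted p = 0.114). In ram 871772 that difference was within 0.01 on the log2 scale. WNT11, which acts in cell movement, was at 10.3 to 28.3 CPM at the base and 1.85 to 24.8 CPM at the tip. Its log2 fold change was -0.61 (SE 0.258, edgeR adjusted p = 0.205), with 4 of 7 rams lower. WNT2, WNT6 and WNT8B were also lower at the tip by a log2 fold change of -0.49, -0.48 and -1.16, with adjusted p-values of 0.31, 0.411 and 0.123 from edgeR. WNT8B was near the floor, with 47 base and 24 tip counts, 2 to 12 per ram at the base and 0 to 8 at the tip. In ram 871772 it had 2 base and 3 tip counts, so its direction there rests on the scaling to library size. The remaining ligands tested, WNT3A, WNT5A, WNT5B, WNT9A and WNT10A, had log2 fold changes between -0.15 and 0.26.

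No Frizzled passed the test. FZD4, the receptor of Norrin that is known for vessel growth, was at 34 to 68.9 CPM at the base (median 44.3) and at 18.5 to 41.8 CPM at the tip (median 28.9). It was lower in 6 of 7 rams, with a log2 fold change of -0.56 (SE 0.181, edgeR adjusted p = 0.0865). Without ram 835507 it was called, at -0.65 (SE 0.169, edgeR adjusted p = 0.0281). FZD1 was higher at the tip in 7 of 7 rams by 0.25 (SE 0.0895, edgeR adjusted p = 0.128), from 37.1 to 45.6 CPM at the base to 40.4 to 55.1 CPM at the tip. FZD6, which acts in the orientation of hairs and in nails, and FZD7 varied between 60.6 and 120 CPM and between 64.6 and 78.7 CPM at the tip, with log2 fold changes of 0.20 and 0.04. Those of FZD2, FZD3, FZD5, FZD8, FZD9 and FZD10 ran from -0.31 to 0.33.

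Among the other R-spondins, RSPO1, RSPO2 and RSPO3 had log2 fold changes of -0.14, 0.03 and -0.03, each with a larger standard error than change. RSPO2, known from the facial furnishings of dog coats, had no count in ram 835507 beyond the base. ROR2, the receptor of WNT5A in polarity signalling, was at 10.3, 14.0, 14.2 and 17.4 CPM at the A/A base and at 4.78, 9.2, 13.8 and 9.12 CPM at the A/A tip. In D/D it was at 10.5, 16 and 12.8 CPM and then at 7.62, 12.8 and 11.4 CPM. All 7 rams were lower at the tip, ram 871784 by little, and the log2 fold change was -0.52 (SE 0.153, edgeR adjusted p = 0.0586). Without ram 871784 ROR2 was called. LRP5 and ROR1 were at -0.28 and -0.26. LRP6 (-0.0006) and RYK (0.014) had changes below their standard errors of 0.146 and 0.0982. By ram, LRP6 ran from -0.601 to 0.606 on the log2(CPM + 0.5) scale. RYK was at -0.61 on that scale in ram 835507, and without this ram its log2 fold change was 0.12 (SE 0.0857).

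WNT1, WNT7A, WNT8A and WNT9B were left out of the position tests by the filter on low counts. WNT1 and WNT7A had 51 and 88 counts over all libraries, spread over the positions. WNT9B, a ligand of kidney tubules and the face, had 57 base, 16 mid-tail and 27 tip counts. WNT8A, a ligand of the early embryo that acts in the posterior body, had no count in any of the 14 libraries of the base, which allows up to 0.0159 CPM (3 counts over the base libraries). It had 5 mid-tail and 40 tip counts. Of the tip counts, 25 were in ram 871772 and 9 in ram 871932, both A/A, while rams 835507 and 871787 had none there. Summed over libraries the tip was 12-fold above the base limit, and 4.85-fold without ram 871772. These folds take the tip counts as exact, so they cover counting error at the base only and no spread among rams. When no filter on low counts was applied, edgeR called WNT8A at a log2 fold change of 5 (SE 1.12, adjusted p = 0.0213), beside 3.67% of all genes. WNT1, WNT7A and WNT9B were not called in that fit (edgeR adjusted p 0.278 to 0.974). The fit was not repeated without ram 871772, which holds 25 of the 40 tip counts.

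The mid-tail was tested against both ends. None of the 34 members was called against the base, where 0.163% of all genes were, and 3 had an unadjusted p under 0.05 (8.82%, beside 11.7% of all genes). WNT16 was at 6.68, 3.58, 3.96 and 2.68 CPM at the A/A mid-tail and at 7.92, 3.4 and 2.07 CPM in D/D. It was higher than at the base in 7 of 7 rams, with a log2 fold change of 0.59 (SE 0.196, edgeR adjusted p = 0.247). ROR2 had a log2 fold change of -0.33 (SE 0.154, edgeR adjusted p = 0.418) and was lower in 4 of 7 rams. LRP5, a co-receptor known from bone mass, was at 32.2, 24.2, 34.6 and 42.0 CPM at the A/A base and at 38.2, 54.0 and 27.3 CPM at the D/D base. Its mid-tail values were 36.4, 35.6, 19.3 and 36.4 CPM in A/A and 25.6, 27.3 and 21.5 CPM in D/D, with a log2 fold change of -0.32 (SE 0.149, edgeR adjusted p = 0.421). The 3 D/D rams were lower at the mid-tail, and 2 of the 4 A/A rams were higher.

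Against the mid-tail, the tip had 0 called members and 0.0736% of all genes called, with 6 members at an unadjusted p under 0.05 (17.6%, beside 5.14% of all genes). RSPO4 was higher than at the mid-tail in 6 of 7 rams, by 0.99 (SE 0.312, edgeR adjusted p = 0.461), from mid-tail values of 0.283, 1.35, 0.696 and 2.0 CPM in A/A and of 0.949, 1.03 and 1.09 CPM in D/D. Ram 871932 was the exception, being higher at the mid-tail. WNT2B was lower than at the mid-tail in 7 of 7 rams, by -0.47 (SE 0.154, edgeR adjusted p = 0.512), from 4.45, 2.89, 8.14 and 4.56 CPM in A/A and 5.27, 4.68 and 6.45 CPM in D/D. WNT3 had a log2 fold change of 0.33 (SE 0.118, edgeR adjusted p = 0.605) from 17.2, 20.4, 13.5 and 18.1 CPM in A/A and 26.0, 26.1 and 21 CPM in D/D.

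Within genotypes, RSPO4 was the member called at the A/A tip (1 of 34, 2.94%, beside 1.62% of all genes, and 13 at an unadjusted p under 0.05, beside 14.5%), with a log2 fold change of 1.79 (SE 0.431, edgeR adjusted p = 0.0489). All 4 tip values of the A/A rams lay above their highest base value, and the share of all genes without overlap in these rams was not counted. The call held in 1 of 7 fits that left out a ram, the one without ram 871784, and was lost without ram 835507 (1.46, adjusted p = 0.136) and without each of rams 871772, 871932, 871787, 871868 and 871869, with adjusted p-values from edgeR of 0.0274 to 0.169 over the 7 fits. The D/D rams had a log2 fold change of 0.96 (SE 0.453, edgeR adjusted p = 0.405), and the difference between the genotypes, tested as an interaction, was -0.83 (SE 0.624, edgeR adjusted p = 0.824). WNT4 did not pass the test, at 1.25 (SE 0.324, edgeR adjusted p = 0.067) at the A/A tip and at 0.50 (SE 0.365) at the D/D tip. Without ram 835507, WNT3 was called at the A/A tip at 0.77 (edgeR adjusted p = 0.0276), as it was not with all rams (0.56, edgeR adjusted p = 0.0961).

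No member was called at the D/D tip, where 0.583% of all genes were, and 4 had an unadjusted p under 0.05 from edgeR (12.3% of all genes). FZD5, a canonical receptor, was at 5.13, 5.65 and 5.72 CPM at the D/D base and at 6.17, 9.87 and 11.8 CPM at the D/D tip. The ranges did not overlap, and the log2 fold change was 0.72 (SE 0.222, edgeR adjusted p = 0.155). The share of all genes without overlap in the D/D rams was not counted. In A/A the base values of 6.37, 4.84, 6.79 and 7.04 CPM and the tip values of 5.6, 6.43, 6.12 and 7.3 CPM overlapped, with a log2 fold change of 0.04 (SE 0.192). Next at the D/D tip were WNT2B at -0.62 (SE 0.243, edgeR adjusted p = 0.292) and LRP5 at -0.51 (SE 0.212, edgeR adjusted p = 0.334). At the mid-tail 0 members were called in either genotype, where 0.0263% of all genes were called in A/A and 0% in D/D. The unadjusted p from edgeR was under 0.05 there for 5 members in A/A (10.5% of all genes) and 1 in D/D (6.77%).

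The change from base to tip was compared between genotypes by an interaction term, and 0 members and 0% of all genes were called, at the mid-tail too. The unadjusted p from edgeR was under 0.05 for 2 members at the tip (6.09% of all genes) and 2 at the mid-tail (5.29%). FZD5 differed by 0.68 (SE 0.293, edgeR unadjusted p = 0.0338 and adjusted p = 0.787) and FZD10 by 0.75 (SE 0.329, edgeR unadjusted p = 0.0381 and adjusted p = 0.787), both with the D/D change above the A/A change. FZD10 was at 27.7, 45.6, 44.9 and 53.2 CPM at the A/A base and at 9.59, 34.6, 48.5 and 33.8 CPM at the A/A tip. The D/D base had 38.3, 49.4 and 41.8 CPM and the D/D tip 51.2, 49.6 and 39.9 CPM. Ram 835507 was the lowest of all at the tip, and without it the A/A log2 fold change of FZD10 went from -0.62 to -0.31. At the mid-tail the lowest p-values were those of FZD10 at 0.74 (SE 0.329, edgeR adjusted p = 0.861) and FZD3 at 0.62 (SE 0.286, edgeR adjusted p = 0.861).

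**Figure D3:**
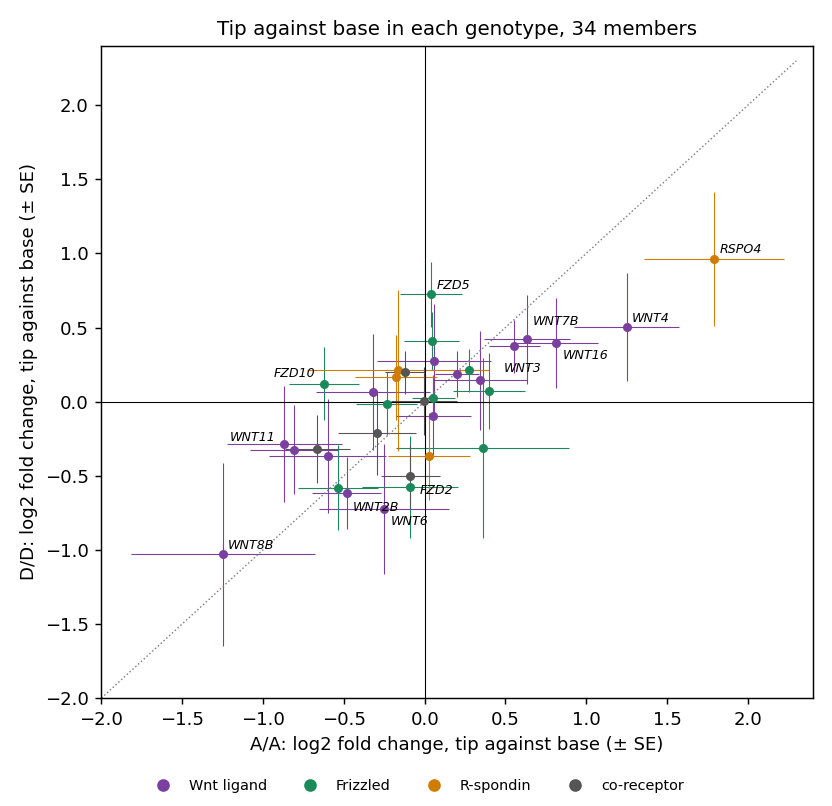
Log2 fold change at the tip against the base in A/A rams (horizontal axis, n = 4) and in D/D rams (vertical axis, n = 3) for the 34 members, with standard errors and a dotted line of equal change. RSPO4 lies at 1.79 and 0.96, WNT4 at 1.25 and 0.50 and FZD5 at 0.04 and 0.72, and no difference between genotypes passed the test.

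A/A was compared with D/D at each position on the 7 ram sums, with 32 members tested, since WNT8B and FZD9 were also too low. No member and 0% of all genes were called at any position. The unadjusted p was under 0.05 for 1 member in the base samples (3.2% of all genes), 0 in those of the mid-tail (5.63%) and 2 in those of the tip (10.2%). Of the 32 members, 25 were lower in A/A in the base samples (median log2 fold change -0.15), 22 in those of the mid-tail (-0.13) and 23 in those of the tip (-0.16), where all genes had medians of 0.0053, 0.0319 and 0.018. Of all genes 49.1%, 46.3% and 48.1% were lower in A/A. Scaled by library totals alone the numbers were 25, 18 and 17 (medians -0.19, -0.06 and -0.07). All genes then had medians of -0.0229, 0.115 and 0.116. The same rams enter at each position, and this direction was not tested.

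WNT2, a ligand of lung and vessel formation, had the lowest p at the base and at the tip. It was at 0.752, 2.25, 1.43 and 1.77 CPM at the A/A base and at 4.22, 1.69 and 3.65 CPM at the D/D base, a log2 fold change of -1.03 (SE 0.446, edgeR adjusted p = 1). At the tip the A/A rams had 1.25, 1.41, 0.462 and 1.24 CPM and the D/D rams 2.56, 2.16 and 2.33 CPM, a log2 fold change of -1.09 (SE 0.4, edgeR unadjusted p = 0.0262 and adjusted p = 0.458). Every D/D tip was above every A/A tip, and at the base the groups overlapped. WNT5B, a non-canonical ligand, was at 0.857, 0.749, 0.96 and 0.83 CPM at the A/A tip and at 1.58, 1.32 and 1.42 CPM at the D/D tip. These groups did not overlap either, and the log2 fold change was -0.75 (SE 0.289, edgeR unadjusted p = 0.0318 and adjusted p = 0.458). The share of all genes without overlap between the genotypes was not counted, so these gaps describe the values only. WNT3 and WNT10A had the lowest p at the mid-tail, at -0.49 (SE 0.227) and -0.65 (SE 0.314), both with an edgeR adjusted p = 0.848. WNT10A, a ligand of hair, teeth and nails, was at 3.52, 6.94, 3.93 and 5.67 CPM at the A/A mid-tail and at 7.64, 6.81 and 9.27 CPM at the D/D mid-tail. RSPO2 at the base was at 0.177, 0.282, 0.434 and 0.523 CPM in A/A and at 0.246, 0.897 and 1.24 CPM in D/D, with a log2 fold change of -1.15 (SE 0.584, edgeR adjusted p = 1).

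**Figure D4:**
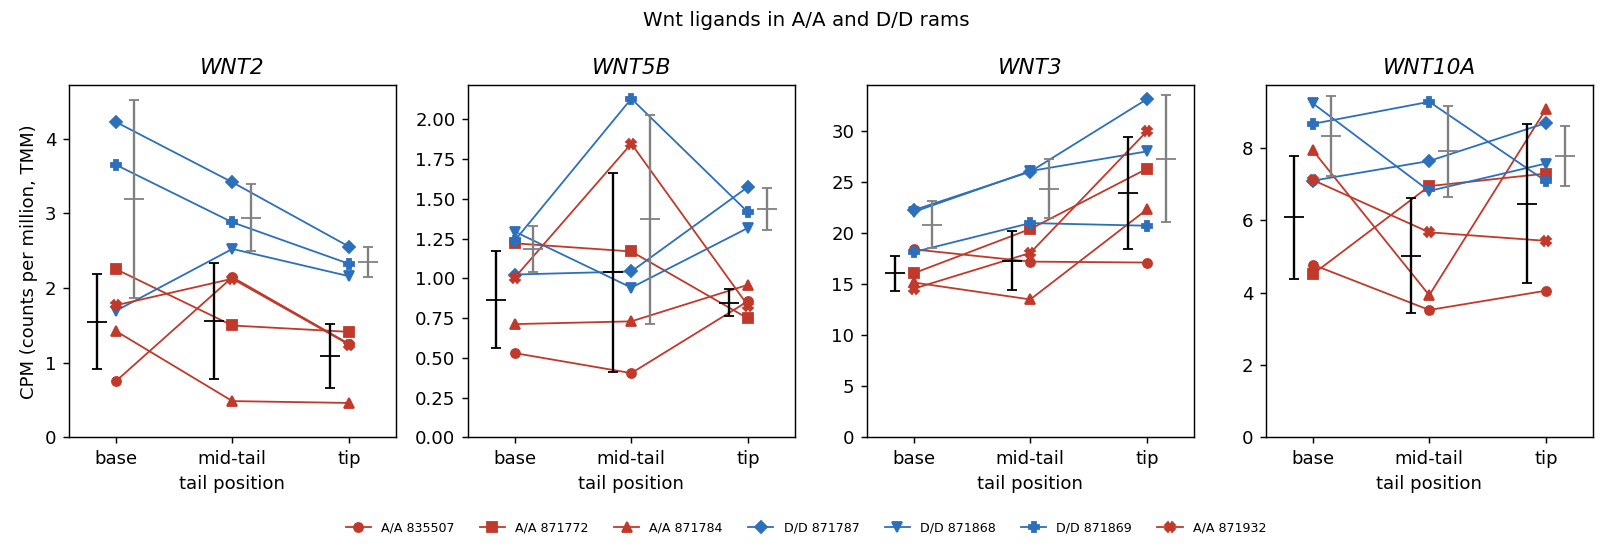
CPM (vertical axis) of WNT2, WNT5B, WNT3 and WNT10A by tail position, each line being a ram (A/A red, D/D blue) and the mean ± SD of the A/A (black, n = 4) and D/D (grey, n = 3) rams. At the tip the WNT2 values of the D/D rams (2.16 to 2.56 CPM) lie above those of the A/A rams (0.462 to 1.41 CPM), and no difference passed the test.

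Ram 835507 differed from the others in genes of several cell types and in several members. The median of 8 wool follicle genes changed by -3.71 on the log2(CPM + 0.5) scale from base to tip in this ram and by -0.40 to 0.56 in the other 6, and their summed level was 1050 CPM at its tip and 12300 to 28300 CPM at the other tips. Smooth muscle genes changed by a median of 1.43 in this ram and by -0.57 to 0.12 in the others, Schwann cell genes by 0.81 against -0.96 to -0.09, endothelial genes by 0.77 against -0.73 to 0.48, and keratinocyte genes by -0.24 against 0.16 to 0.93. Adipocyte, melanocyte, sweat gland and immune cell genes also lay above the range of the other rams, and the summed level of sebaceous gland genes was 3400 CPM at its base and 3930 CPM at its tip, against 324 to 927 CPM at the bases and tips of the others. On the same scale its tip minus base was -2.21 for WNT11, -1.48 for FZD10, -1.3 for WNT10B, -1.03 for ROR2, -0.91 for RSPO3, -0.77 for WNT3A and -0.61 for RYK, each the lowest of the 7 rams except that WNT10B was as low in ram 871932. RSPO4 and WNT4 changed in the direction of the other rams, by 1.52 and 0.35. Without this ram the log2 fold change of WNT11 over the rams went from -0.61 to -0.34 and that of FZD10 from -0.31 to -0.10. The part of these cell types in the values of the members was not tested.

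**Figure D5:**
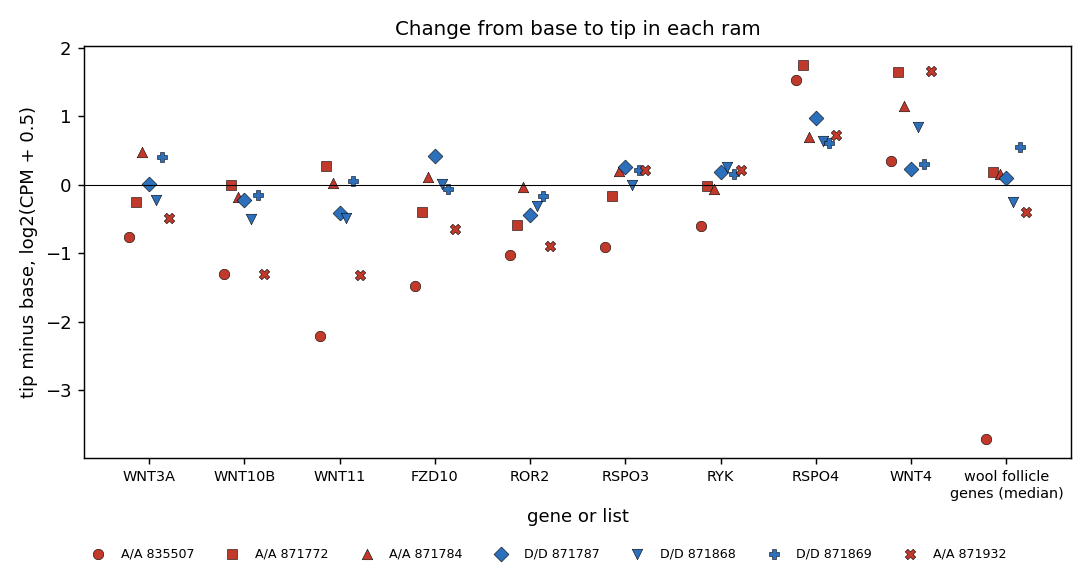
Tip minus base in log2(CPM + 0.5) (vertical axis) of 9 members and of the median of 8 wool follicle genes, with 1 point per ram (A/A red, D/D blue). Ram 835507 (red circle) is at -3.71 for the follicle genes and at -2.21 for WNT11, and within the range of the other rams for RSPO4 (1.52).

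Of 69 other genes of the pathway that were tested, 4 rose and 2 fell from base to tip in the 7 rams. That is 8.7%, beside 5.09% of all genes (2.24% higher and 2.84% lower). LGR6, a receptor of R-spondins that marks stem cells of the upper follicle, was at 0.34 to 5.18 CPM at the base and 0.618 to 11.6 CPM at the tip, higher in 7 of 7 rams, and rose by a log2 fold change of 1.52 (SE 0.242, edgeR adjusted p = 0.00139). It was the 1 of 5 R-spondin receptors and ligases called. Of 16 Wnt antagonists tested, 3 rose and 1 fell. WIF1, which binds Wnts outside the cell, rose by 0.65 (edgeR adjusted p = 0.0128), the secreted Frizzled-related SFRP2 by 0.97 (edgeR adjusted p = 0.00875) and DKK3, a member of the Dickkopf family, by 0.64 (edgeR adjusted p = 0.00845), each higher in 7 of 7 rams. SFRP4, also a Frizzled-related protein, fell by 2.5 on the log2 scale (SE 0.407, edgeR adjusted p = 0.00159), from 8.24 to 70.7 CPM at the base to 4.66 to 8.71 CPM at the tip, lower in 6 of 7 rams.

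Of 12 tested targets and feedback genes, SP5, a transcription factor switched on by β-catenin, fell by 0.94 on the log2 scale (edgeR adjusted p = 0.0297). None of the 24 genes of the cytoplasmic relay, the 10 nuclear factors and the 2 genes of Wnt secretion was called, with medians of 0.061, -0.016 and -0.076. The medians of the antagonists, the receptors and ligases, and the targets were 0.084, 0.19 and -0.33. At the A/A tip, LGR6, WIF1, DKK2 (1.04, edgeR adjusted p = 0.0158) and TWIST1 (0.97, edgeR adjusted p = 0.029) rose and none fell. These are 5.8% of the 69 genes tested, beside 1.62% of all genes. No other comparison called a gene of these lists.

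Some markers of several cell types were called from base to tip in the 7 rams. Here rose and fell mean called, beside 5.09% of all genes. The lists are short, so 1 call in a list tells little about its cell type. Of 10 dermal papilla genes, 5 rose and none fell, while 8 had a higher and 2 a lower log2 fold change. Their median log2 fold change was 0.47, with a summed level of 82.4 to 150 CPM at the base and 134 to 218 CPM at the tip. Of 9 fibroblast genes, 3 fell (median -0.60, 10300 to 21400 CPM at the base and 3290 to 13000 CPM at the tip), and of 8 keratinocyte genes 1 rose (median 0.33, 13500 to 27700 and then 19000 to 42900 CPM). Of 7 tendon, cartilage and bone genes tested, 3 rose (median 1.1, with sums of 8.01 to 15.5 and then 19.6 to 58.3 CPM, and 1 gene of the list at 0 in all rams). Among melanocyte and sweat gland genes 2 of 7 and 2 of 6 fell (medians -1.43 and -0.49), and 1 gene each fell among those of adipocytes, Schwann cells, skeletal muscle and immune cells (medians -1.4, -0.48, -0.21 and -0.22). On the log2(CPM + 0.5) scale, melanocyte medians were -3.08 in ram 871932, -2.64 in ram 871787 and -0.315 to 0.125 in the others. The adipocyte median log2 fold change was -0.356 in A/A and -2.36 in D/D, and the Schwann cell median -0.04 and -0.943. The difference between genotypes called 0 genes of either list and 0% of all genes. None was called among the genes of the wool follicle, endothelium, smooth muscle or sebaceous gland (medians -0.38, -0.15, 0.02 and 0.44). The part of these cell types in the changes of RSPO4, WNT3, WNT4 and WNT2B was not tested.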

How the data were processed

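RNA of tail skin, selected on oligo(dT) beads, was made into CorALL libraries. After a FastQC 0.11.9 check, the authors used ContextMap 2 on BWA for alignment (build ARS-UI_Ramb_v3.0) and featureCounts for strand-specific counting per RefSeq gene. What they deposited are raw read counts for 31182 genes in 41 libraries. The tip columns are listed as estimated counts in the table of units because of a word in their names, but the deposited values are whole counts and rounding changed nothing. No column was left out (0).

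Counts were summed per ram and position and tested with edgeR 4.0.16 in R 4.3.3 (quasi-likelihood test, TMM, filterByExpr with a minimum count of 10), which tested 19029 genes between positions, with the ram as a block, and 17738, 17996 and 17842 between genotypes at base, mid-tail and tip. The 2 libraries of a ram and position differed beyond sampling noise (chi-square per degree of freedom 13.6 to 118). They come from the same ram, and in 20 of 21 pairs the sums of 1 ram had deviations correlated above 0.1 (median 0.476). Alternatives used DESeq2 1.42.0, limma 3.58.1 and other settings. The tests were run on simulated data first. Members and gene lists were chosen with earlier results of these data known. The rule was to name members called in a comparison, or with one of the 3 lowest p-values in it, with full values. The called members have them. Some of the others, such as FZD3 and RYK, lack values per ram, and those at the mid-tail within a genotype are not named there. A clause of that rule on the level per length was not applied, since no lengths were used.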

Additional observations from a re-analysis of the deposited data

Results flagged for a closer look

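Of 68 groups of 4 or 7 values of named members, 4 held a ram far from the others by Dixon's criterion, and chance alone flags about 1 in 20 groups. WNT2 was at 0.462 CPM at the tip of ram 871784, below the other A/A rams. FZD4 was at 68.9 CPM at the base of ram 871772, above the other A/A rams. LRP5 was at 19.3 CPM at the mid-tail of ram 871784, below the other A/A rams. RYK differed by -0.61 (log2) from base to tip in ram 835507, below the other 6 rams.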

How the results depend on the processing

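For the 7 rams from base to tip, 4 members were called, and 0 at an adjusted p of at most 0.01 with an absolute log2 fold change over 1. DESeq2 on the ram sums called 7 (beside 7.13% of all genes) and single libraries in edgeR 9 (11.9%). The same with the library number as a replicate block called 9 (11.5%) and DESeq2 on single libraries (ram as block) 11 (12.4%). Libraries numbered 1 alone called 2 (3.1%) and libraries numbered 2 alone 0 (1.38%). With no replicate block, so that the ram was not in the fit, 0 were called (0.951%). Leaving out a ram gave 0 to 5 (2.44% to 6.66% of all genes), with 0 without ram 871772 or 871787, and 1 (RSPO4) without 871868 or 871932. At the mid-tail, where 0 were called, single libraries in edgeR called 1 (2.54% of all genes) and DESeq2 on single libraries 2 (3.86%). DESeq2 on single libraries also called 2 for the tip against the mid-tail (0.925%) and 2 at the A/A mid-tail (4.22%).

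At the A/A tip, where 1 was called, 0 were called by the stricter threshold, limma-voom (1.69% of all genes), library totals (1.7%) and no replicate block (0.0946%). Libraries numbered 1 (0.806%), libraries numbered 2 (0.105%) and each genotype fitted on its own (0.465%) also called 0. Without a filter on low counts 2 were called (1.4%), and by DESeq2 on the ram sums 4 (4.07%). Single libraries called 5 (7.38%), also with the library number as a replicate block (7.02%), and DESeq2 on single libraries 7 (8.53%). Leaving out a ram gave 0 to 2 (0.311% to 1.56%). At the D/D tip, where 0 were called, single libraries called 1 without or with that block (5.14% and 5.03% of all genes). DESeq2 on single libraries called 2 there (6.33%). The cause of these differences was not tested.

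Differences between genotypes and between their changes had 0 members called under every setting run. Each alternative was run for 54 log2 fold changes, those of the called members along the tail and the 3 with the lowest p in each comparison. Among these, the directions that turned were at the mid-tail. WNT2B in 7 rams was at 0.113 in libraries numbered 2 and, with a ram left out, from -0.159 to 0.0422. In A/A it was at -0.113 in libraries numbered 1 and, with a ram left out, from -0.157 to 0.265. In D/D, WNT4 was at -0.0223 and RSPO4 at 0.68 in libraries numbered 2, and RSPO4 from -0.282 to 0.116 with a ram left out. Of the values of these 54 under alternatives, 890 kept direction and side of the threshold, 43 lost a call, 17 gained one and 8 turned. Outside these 54, leaving out ram 835507 also turned small changes, among them some at the A/A tip (RSPO2 from -0.16 to 0.18, WNT5B from 0.06 to -0.17 and RYK from -0.12 to 0.04), at the A/A mid-tail (RSPO2 from -0.00043 to 0.36) and at the tip of the rams together (WNT10A from -0.0089 to 0.027). With 4 and 3 rams, and under 1 CPM for several members, small changes were not detectable.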
